A study of Mus musculus with 2 samples.

Results

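The abundant flagged splice junctions of middle length in the adult mouse ovary numbered 4068 of 438382 junctions in the authors' deposited table. A splice junction is the join that a sequenced read spans where an intron has been removed. They were chosen by measured and recorded values: the flag A in the name of the junction equal to 1, at least 1000 reads, and an intron of 101 to 99999 bases. They made up 0.928% of the junctions and carried 10321869 of 27636523 junction reads, or 37.3%. No source used here states what the flag A means. Of the 483 abundant junctions longer than 5000 bases, 482 (99.8%) had an annotated intron of exactly the same length on the same chromosome and strand. After 1 base was added to the length only 55 did (11.4%), and of 1775 junctions of that length without the flag, with at least 20 reads, 468 did (26.4%). Of the 19 without the flag that had at least 1000 reads, 9 did (47.4%).

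The study measured poly(A)+ RNA longer than 200 nucleotides, depleted of ribosomal RNA, in 2 stranded ovary libraries, replicate 1 and replicate 2. Both came from untreated female C57BL/6J mice of 8 weeks, which the labels describe as littermates, and no treatment or allele was compared. The labels cite the same donor record for both libraries, so their spread may in part be technical. Ovarian genes were present in both: the mean TPM (transcript abundance corrected for length) was 316 ± 5.25 for Nr5a1, a nuclear receptor of steroid-making cells, 251 ± 24.6 for Gata4, a granulosa cell factor, and 169 ± 24.8 for Zp3, an egg coat protein (SD, n = 2 each).

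An intron is removed by the spliceosome, which recognises a donor site at its 5′ end and an acceptor site at its 3′ end. Most mammalian introns begin with GT and end with AG. A small class with GC in place of GT is removed by the same machinery, and a rare class, often AT to AC, by the minor spliceosome. Where a donor can be joined to more than one acceptor, or an acceptor to more than one donor, a gene makes several transcripts from one set of exons. A junction count measures how often a particular join was sequenced. It is not a gene level, because it depends on where reads fall along the transcript.

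Sequences for 4 of the joins with the most reads inside coding exons show what a read carries there. They were read from GENCODE M21 transcripts on mm10, 12 bases from each exon, 5′ to 3′. On mm10 the Rack1 intron lies at chr11:48800561-48801674 with its flanks, on the plus strand, and the others on the minus strand at chr9:61913951-61914368, chr5:77355660-77407551 and chr19:34246228-34246663 in the order shown. The capitals mark the last 3 bases of the exon before and the first base of the exon after the removed intron.
Rack1 intron 1: ctgcgtctcGAGAcaagaccatca
Rplp1 intron 1: gtgacggtcACGGaggataagatc
Igfbp7 intron 1: cctgcgagcAAGGtccttccatag
Acta2 intron 5: gacgtacaaCTGGtattgtgctgg
In the 3919 abundant junctions matched to 1 annotated gene, the exon before ended in G in 82.6%, against 80.0% of 264596 other annotated introns of the same length range. It ended in AG in 49.8%, against 55.3%. The exon after began with G in 49.3%, against 47.3%.

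Intron ends could be read only where an exon of another annotated transcript runs across them. That was so for 885 donors and 875 acceptors, and at both ends for 502 introns. GT stood at 880 of the 885 donors (99.4%, against 96.6% of 45432 other readable annotated donors), and AG at 871 of the 875 acceptors (99.5%, against 98.9% of 43663). Of the 502 introns read at both ends, 498 were GT to AG, 2 were GC to AG and 2 were AT to AC.

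A second flag in the junction names, C, followed these ends, although no source states its meaning. It was 0 in 12 abundant junctions and 1 in 4056. Of the 12, an end could be read in 8, and 7 of the 8 had an end other than GT or AG. Of the 1250 with C equal to 1 and a readable end, 0 had another end, which allows a share of up to 0.240%. The ends are shown for 6 of the 7, with 8 exon bases, 12 intron bases and the terminal pair of the intron in capitals, all on mm10 from the strand of the gene. The junction of Hnrnpl, a splicing repressor, was the other and was AT to AC.
Rack1 intron 2 donor: ctcacaacGCaagtagctgc
Lztr1 intron 18 donor: gactcgctGCatccttttac
Sqstm1 intron 7 donor: cccaccagGCatgtggtcac
Hsbp1 intron 2 donor: cggaaggaATatccttttga
Hsbp1 intron 2 acceptor: taactgtgccACtagatgac
Arpc5 intron 1 acceptor: aaccttcgttACaggaaaca
Arpc5l intron 1 acceptor: gctttgatgcACaggggaca
The GC donor of Rack1, at chr11:48615337-48615774 on mm9, carried 23251 reads and took 99.9% of the reads at its donor. Rack1 encodes a scaffold protein of the small ribosomal subunit. Hsbp1, a small regulator of heat shock factor, had 2838 reads over its AT to AC intron, against 475 over intron 1 and 165 over intron 3. Arpc5 and Arpc5l, alternative subunits of the actin-nucleating Arp2/3 complex, both had an AC acceptor at intron 1, with 3416 and 1169 reads.

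The letters ATCCTT at bases 3 to 8 of the intron, part of the donor consensus of minor-spliceosome introns, stood at 9 of 870 readable donors of abundant junctions (1.03%), against 175 of 44078 other readable annotated donors (0.397%). Only the transcribed strand was searched. The 9 lay in Selenom, Slc12a7, Lztr1, Eif3i, Tmem33, Hnrnpl, Mapk3, Hsbp1 and Rpl4. Of these, 6 began with GT and had C equal to 1. The highest was Eif3i, a subunit of translation initiation factor 3, with 3264 reads.

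Reads fell steeply across the abundant junctions. The median was 1599, the quartiles 1217 and 2456, and the highest 83771. The 10 with the most reads took 4.90% of the reads of all 4068, and the 100 with the most, each with at least 10255 reads, took 18.6%. Read counts were part of the rule, so they are a description. The deposited counts are not tied to a library and carry no SD.

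Of the 10 junctions with the most reads, 9 lay in genes of protein synthesis or of actin. Intron 1 of Rack1 (chr11:48614075-48615164) had 83771 reads. Intron 1 of Actb, cytoplasmic actin, had 83370 (chr5:143667372-143668330, minus strand), and intron 3 of the same gene had 56750. Intron 1 of Rplp1, a stalk protein of the large ribosomal subunit, had 70316 (chr9:61761770-61762163, minus strand). Below them came Rps21, of the small ribosomal subunit, with 33801, the smooth muscle actin Acta2 with 32512 and the elongation factor Eef2 with 31268. One of the 10 was a long intron: Igfbp7, a secreted protein that binds insulin-like growth factors, had 39310 reads over an intron of 51868 bases (chr5:77784697-77836564, minus strand).

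**Figure D1:**
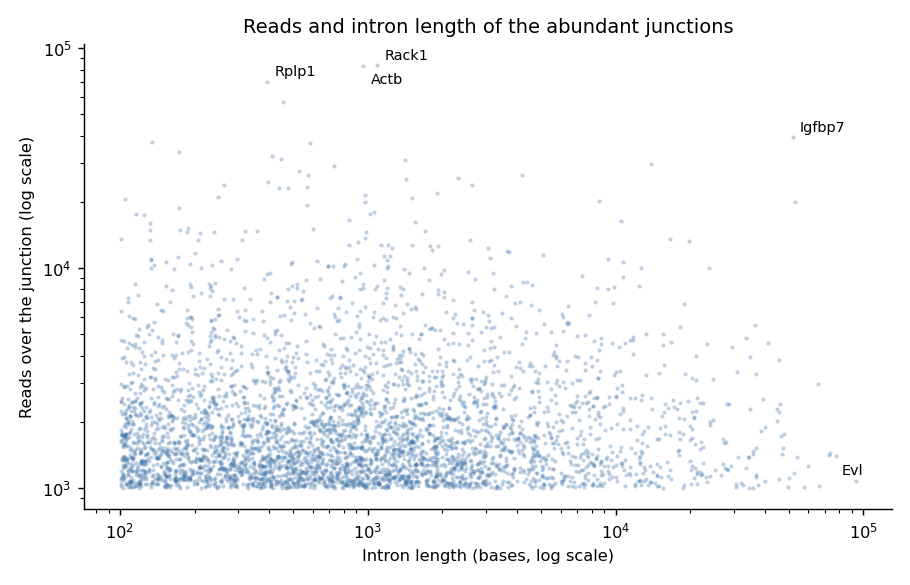
Each point is 1 of the 4068 abundant junctions, with intron length in bases on a log x axis and reads over the junction on a log y axis. The upper quartile is 2456 reads, and Igfbp7, with 39310 reads over 51868 bases, stands far above other introns of its length.

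Intron length had a median of 803 bases and quartiles of 286 and 2142. Flagged junctions of the same length range under 1000 reads had a median of 1457 bases. Above the floor of 1000 reads, which the rule set, the abundant junctions had alike medians across length classes. The median was 1602 reads for introns of 101 to 200 bases and 1605 for those over 5000. The 5 longest lay in Evl, an actin regulator (93101 bases, 1077 reads), Smoc1, a secreted matrix protein (77448 bases, 1391 reads), Cpe, which processes prohormones (73095 bases, 1435 reads), Wwtr1, the Hippo pathway coactivator TAZ (72954 bases, 1417 reads), and Rhoj, a small GTPase (66346 bases, 1020 reads). At the short end 16 junctions had exactly 101 bases, led by Atp5b, the beta subunit of ATP synthase (13520 reads). Rnf126 (6406), Nbl1 (4731), Ech1 (2985) and Crip2 (2484) followed.

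At the read threshold, 6 junctions had exactly 1000 reads, among them those of Nsmf, Ttyh2 and Ganab, and 9 otherwise alike had 999. At the lower length threshold 13 flagged junctions with enough reads had 100 bases, the highest with 16994 reads. Beyond the upper one lay 742 flagged junctions, and 0 of them reached 1000 reads: the highest had 928.

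Gene names were given by structure, because the junctions are on mm9 and the annotation on mm10. A junction was named where its intron length, the length of the exon next to it and the length of the following intron, all exact, occurred in 1 gene of its chromosome and strand. This placed 3919 (96.3%) in 1659 genes. A further 78 fitted several genes, such as the alpha-globin copies Hba-a1 and Hba-a2. By intron length alone 31 fitted 1 gene and 36 several, and 4 had no annotated length. With 1 base added to the intron length, 1 junction found a triple. Of the 3919, 3666 lay within the coding part of a transcript, 225 in the 5′ UTR, 18 in the 3′ UTR, and 10 in genes without a coding transcript.

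An exon of at most 1000 bases joined 2690 of the 4068 (66.1%) to another abundant junction. There were 1847 such exons, with a median of 138 bases and quartiles of 101 and 199, and 41.7% of them were a multiple of 3 bases long. A single abundant junction stood in 840 genes, 194 genes had at least 5, and 26 had at least 10.

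Fibrillar collagens and other large matrix and cytoskeletal genes held the most. Col1a2, a chain of type I collagen, had 33, with 1043 to 5198 reads. Ltbp4, a binding protein of latent TGF-beta, had 22 (1177 to 8158). The actin crosslinker Flna had 21 (1044 to 5779), and so did Col1a1 (1047 to 5418). Col3a1, the chain of type III collagen, had 20, the fatty acid synthase Fasn 18, the actin-severing protein Gsn 17, the integrin adaptor Tln1 17 and the endocytic receptor Lrp1 15. Of these Flna and Fasn had the highest levels, 1318 ± 143 and 1327 ± 273 mean TPM, and Col3a1 the lowest, 136 ± 26.6 (SD, n = 2 each).

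Within a gene the joins were far from equal. In the 194 genes with at least 5, the highest had a median of 3.10 times the reads of the lowest. The ratio was above 10 in 11 genes and under 2 in 41. To see every intron, the joins of 1 transcript were followed by exon and intron lengths in both directions, whatever their reads. The whole chain was found, in the most abundant transcript of the gene, for 1239 genes with 3 or more introns. Of the 12283 introns in them 3016 were abundant junctions.

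The highest join had a median of 3.55 times the reads of the median join of its transcript. It was the first intron in 422 of the 1239 genes (34.1%), a middle one in 644 (52.0%) and the last in 173 (14.0%). These shares are not at like numbers of introns. The transcripts had a median of 8 introns, of which a single one is the first and a single one the last. It exceeded 20 times the median in 100 genes, and in 65 of those it was the first intron. In 267 genes it was at most 2 times the median, and there it was the first in 73. These transcripts were entered through their highest join, so the ratios describe the genes and are not a test.

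Rack1 showed the pattern in a mild form, with 83771, 23251, 14664, 14733, 14664, 12379 and 5759 reads over introns 1 to 7. All 7 were abundant junctions. Lhcgr, the luteinising hormone receptor of theca, granulosa and luteal cells, was extreme. It had 13302 reads over intron 1, of 19715 bases, and 152, 32, 16, 34, 65, 286, 286, 18 and 34 over the other 9. Only the first passed the rule. Nckap1, a subunit of the actin-regulating WAVE complex, had 2728 reads over intron 1 and 5 to 330 over the other 29. Gps1, a subunit of the COP9 signalosome, had 3372 over the first of 13 introns and at most 150 over the others. Mfsd1, a lysosomal membrane transporter, had 4020 and at most 677. Odc1, the first enzyme of polyamine synthesis, had 7935 over the first and 1075 over the last of its 11 introns. These 5 genes were picked after their values were seen.

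**Figure D2:**
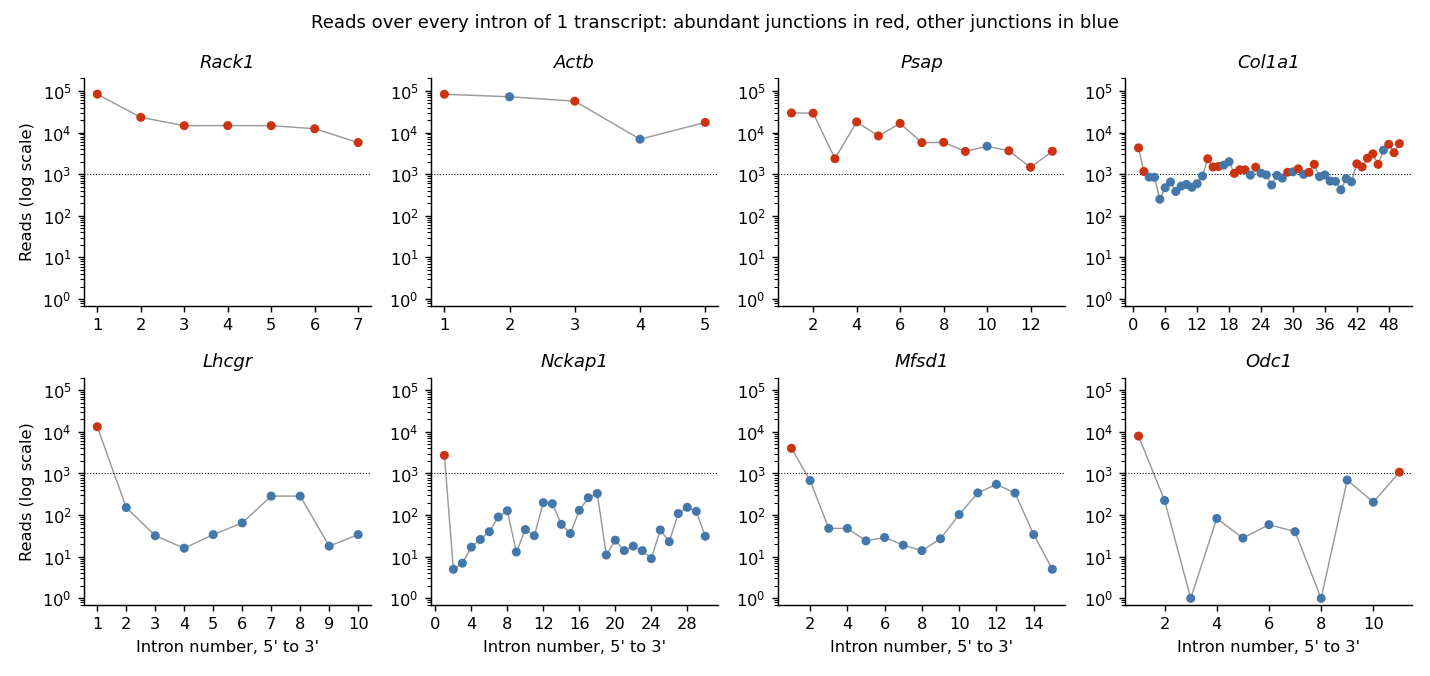
Each panel gives the reads (log y axis) over every intron of 1 transcript in order from 5′ to 3′ (x axis). Red points are abundant junctions and blue points other junctions, some of which lie above the dotted line at 1000 reads because their introns have 100 bases or fewer. In Lhcgr, Nckap1 and Mfsd1 the first intron alone lies above 1000 reads, while in Rack1 all 7 do.

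Each junction name holds a pair of read numbers, here number 1 and number 2, whose sum is the count. No source ties them to the replicates, so they are compared as they stand. They summed to 15251298 for number 1 and 12385225 for number 2 over all junctions, and each was divided by its sum, with 1 read added. Of the 4068 abundant junctions, 400 (9.83%) differed over 2-fold, 151 higher in number 1 and 249 higher in number 2. The background over all 92822 junctions of at least 20 reads was 15.5%, and its direction was the opposite, 8552 higher in number 1 and 5831 in number 2. That background depends on depth: of flagged junctions of the same lengths, 20.2% differed over 2-fold at 20 to 99 reads, 9.71% at 100 to 499 and 7.80% at 500 to 999. With 1 number on each side there is no test.

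Place in the transcript separated them. First introns had a median log2 of number 1 over number 2 of -0.34 (797 junctions), against 0.06 for second introns (495), 0.04 for later ones (2103) and 0.07 for last ones (504). The 20 that were the only intron of their transcript had a median of -0.58, with 1 over 2-fold higher in number 1 and 7 in number 2. Of the first introns 23 were over 2-fold higher in number 1 and 164 in number 2, while of the later ones 65 and 23 were. First and only introns here are those of the most abundant annotated transcript holding the join. Naming needed a neighbouring intron, so the genes of those 20 also have transcripts with more introns.

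**Figure D3:**
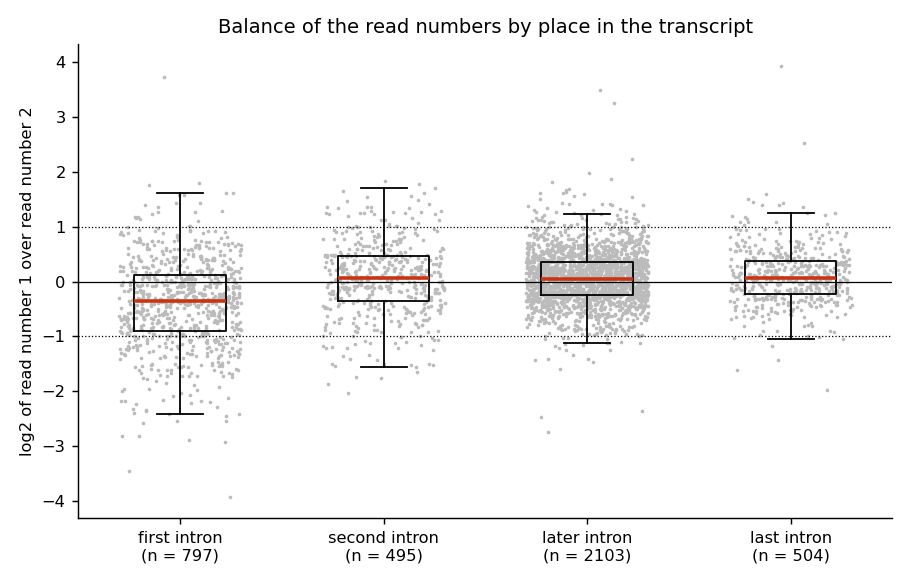
Each grey point is an abundant junction, grouped by its place in the transcript (x axis), and the y axis gives log2 of number 1 over number 2 after scaling. Boxes span the quartiles with the median in red, whiskers reach the last point within 1.5 box lengths, and dotted lines mark 2-fold. The median of first introns is -0.34, and those of the other 3 places drawn lie between 0.04 and 0.07.

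First introns also lay below later ones in junctions that the rule did not choose. In flagged junctions of the same lengths with 100 to 999 reads, the median was -0.28 for 4231 first introns, against 0.12 for 22897 later ones. In flagged junctions of 100 bases or fewer with at least 1000 reads it was -0.53 for 49 first introns, against -0.01 for 413 later ones. Only introns did not lie low there, with medians of 0.05 (132 junctions) and 0.02 (5). Second introns of the short set had -0.06, with 2 of 50 over 2-fold higher in number 1 and 10 in number 2. With only introns left out, first introns lay below the rest in each of the 6 length classes of abundant junctions. Among abundant junctions of 101 to 200 bases first introns had a median of -0.35 and all other introns 0.00, and among those over 5000 bases -0.51 and 0.14.

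Inside genes the order held as well. In 425 genes with an abundant junction at the first intron and at another, the first was lower in 311 and higher in 114, with a median difference of -0.39 (quartiles -0.99 and 0.05). By distance from the annotated transcript start, joins at 101 to 200 bases stood apart. Their median was -0.57, with 5 of 272 over 2-fold higher in number 1 and 95 in number 2. Those at 1 to 100 bases had a median of 0.00, with 9 and 9 of 115, and those at 201 to 300 bases -0.01, with 47 and 59 of 514.

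The 5 abundant junctions most shifted toward number 2 were the first intron of their transcript. For Eef1b2 the annotated transcript used has no other intron, though the match by structure also found a neighbouring intron of the gene. Pgs1, an enzyme of cardiolipin synthesis, had 110 reads in number 1 and 1366 in number 2. The chemokine Cxcl12 had 286 and 2542, the elongation factor subunit Eef1b2 448 and 3060, the epoxide hydrolase Ephx2 694 and 4283, and the lactate transporter Slc16a1 311 and 1863. Gene levels are a separate readout. Pgs1 had 55.2 TPM in replicate 1 and 94.5 in replicate 2, Ephx2 179 and 254, Cxcl12 175 and 353, and Slc16a1 18.8 and 29.3. Eef1b2 had 763 and 443 TPM, while its expected counts were 7297 in replicate 1 and 7467 in replicate 2, a log2 of -0.33 after TMM scaling. Its TPM and its scaled counts thus ran opposite ways, and reads shared with processed copies make both uncertain.

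Toward number 1 the leader was Prap1, a secreted protein of uterine and intestinal epithelium, with 1132 and 59 reads at its last intron, 1121 and 68 at the first and 1003 and 71 at the third. All 3 of its abundant junctions lay the same way, and the gene had 308 TPM in replicate 1 and 25.5 in replicate 2. In whole tissue, fewer cells of a type and less RNA per cell cannot be told apart. Ribosomal genes followed: intron 3 of Rplp2 had 2502 reads in number 1 and 213 in number 2, and intron 3 of Rps26 had 1175 and 164. Those genes differed little in level, with 851 TPM for Rplp2 in replicate 1 and 739 in replicate 2. Processed copies of ribosomal protein genes can share reads with them, so such counts are uncertain. Among the 819 genes with at least 2 abundant junctions, 193 had a member over 2-fold and in 2 all were.

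Host genes were chosen through joins of at least 1000 reads, so their high levels follow from the rule and are a description. Of the 1659, 1656 were in the gene tables. Their median level was 141 TPM (quartiles 82.5 and 261), all reached 1 TPM in both libraries, and they made up 46.5% of all TPM in replicate 1 and 47.6% in replicate 2. Across these genes the reads of the highest join and the mean TPM had a Pearson r of 0.65 on log2 scales and a Spearman rho of 0.58. That is a description over 1656 genes of the same libraries, which are not independent replicates.

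Between the libraries 33 host genes (1.99%) differed over 2-fold after TMM scaling, 2 higher in replicate 1 and 31 higher in replicate 2. The background was 3.97% of 15938 genes that averaged 20 counts or more. It reaches down to low counts, while host genes were chosen through their reads, so these shares are not at like depth. The direction of the background was not counted. The mitochondrial ribosomal protein Mrpl52 had 272 TPM in replicate 1 and 824 in replicate 2, and Mrps24 had 250 and 762. Igfbp7 had 4958 and 11073, and Pgr, the progesterone receptor, 24.0 and 68.0. Prap1 and Sfr1 were the pair that was higher in replicate 1.

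Most of these joins had little competition for their sites. All reads at both ends went to the abundant junction itself in 847 cases, and at least 99% did in 3265 (80.3%). A competing junction, with at least 5% of the reads at a shared site, was found for 248 (6.10%). Of those, 152 shared the donor and 127 the acceptor, 31 of them both. In 19 the abundant junction had under 50% of the reads at one of its ends, and in 275 (6.76%) under 95%. For flagged junctions of the same lengths the share under 95% was 9.96% at 500 to under 1000 reads. It was 13.7% at 100 to under 500 reads and 22.7% at 20 to under 100. The rule chose junctions by reads, which may favour the larger form at a site, so the low competition is a description. A competitor was found for 88 of 797 first introns, 27 of 504 last introns and 118 of 2598 middle introns, and the share was 5.42% at 101 to 200 bases and 8.70% over 5000 bases. Intervals below are 95% Wilson intervals, which cover counting error only because reads carry no molecular identifiers.

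Acceptors 3 bases apart formed the tightest group. In 31 abundant junctions the competitor ended 3 bases away, in 30 at the acceptor and in 1, Chd4, at the donor. They made 26 acceptor pairs in genes placed by structure, and for 25 of these the 3 bases between both acceptors could be read. In all 25 the bases ended in AG: CAG in 19, TAG in 5 and AAG in 1. A set of 6, in coding exons, are shown from the upstream acceptor on, with the 3 bases in capitals, which the longer exon keeps and the shorter one loses.
Cfd: CAGcacagcccc
Aes: CAGcagctccag
Fkbp8: CAGgagcccata
Psap: CAGaatctggtc
Sparc: CAGcagactgaa
Oaz2: TAGtattttgcc

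The use of such pairs ranged widely, and the read numbers differed little within a pair. Cfd, the complement protease adipsin, had 23040 reads at the upstream site, 40.3% of those at its donor (39.9% to 40.7%), and 34130 at the downstream one, which was not flagged. Its upstream share of the pair was 38.5% in number 1 and 42.3% in number 2. Fkbp8, an antiapoptotic immunophilin, had 6146 and 1418 reads, an upstream share of 81.2% in number 1 and 81.3% in number 2. Timp1, an inhibitor of matrix metalloproteases, had 1927 and 3019 reads, or 38.2% and 39.6%. The transcription factor Gata4 had 683 and 1478, or 32.0% and 31.0%. In Sparc, a collagen-binding matrix protein, it was 2920 and 549, and in Psap, the precursor of the saposins, 5824 and 389. The upstream site had more reads in 16 of the 26 pairs. The upstream share differed between number 1 and number 2 by a median of 1.49 percentage points and at most 7.02.

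For 47 abundant junctions a competing site lay within 50 bases at another distance, down to 1 base in Anxa2. Atp5g3, a subunit c gene of ATP synthase, used donors 10 bases apart in its 5′ UTR with 8429 and 2382 reads, both abundant junctions. Pip4p1, a phosphoinositide phosphatase, used donors 21 bases apart with 1228 and 1054.

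Skipped exons accounted for 76 abundant junctions with a competitor. They defined 61 skipping events over 60 exons of a median of 94 bases, and 39 of the exons were a multiple of 3 long. Inclusion was taken as the mean of both inclusion joins over that mean plus the skipping join. It was under 50% in 18 events. Number 1 and number 2 differed by a median of 3.93 percentage points and by over 10 in 4 events. For 41 exons the annotated transcripts with and without the exon were in the transcript tables. The TPM share of the including transcripts, averaged over the libraries, lay within 10 points of the junction value in 28 and over 30 points away in 3 (Pearson r 0.78, Spearman rho 0.72, as a description).

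Scarb1, the HDL receptor that brings cholesterol into steroid-making cells, showed such an exon near its 3′ end. The exon of 129 bases at chr5:125761475-125761603 on mm9 had 5423 and 1838 reads over its joins and 1069 over the join that skips it. All 3 were abundant junctions. Inclusion was 78.9% in number 1 and 74.96% in number 2, and by TPM 74.3% in replicate 1 and 74.4% in replicate 2. Skipping of such an exon is known to give the receptor form SR-BII, with another cytoplasmic tail.

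In Flna a 24-base exon was included at 47.4% in number 1 and 41.2% in number 2, from 2624 and 2538 inclusion reads and 3240 skipping reads. By TPM the values were 49.3% in replicate 1 and 44.2% in replicate 2. Wt1, a zinc finger factor of granulosa cells and ovarian surface epithelium, has a known 51-base exon. It was included at 10.3% in number 1 and 13.9% in number 2, with 1038 reads skipping it. Mfge8, a secreted bridging protein for apoptotic cells, skipped a 111-base exon with 1696 reads and included it at 7.41% and 5.82%. Cbs, the first enzyme of transsulfuration, included a 42-base exon at 26.5% and 30.2%. Ptbp1, a splicing repressor, included its 78-base exon at 55.0% and 45.4%. The widest gaps between the read numbers were in G3bp1, a stress granule protein, with 56.6% in number 1 and 78.6% in number 2, and in Nnat, an imprinted membrane proteolipid, with 95.5% and 76.8%. The junction and transcript values lay over 30 points apart in 3 exons. The 45-base exon of Mgrn1, a ubiquitin ligase, was included at 16.9% in number 1 and 29.1% in number 2. By TPM it was at 87.3% in replicate 1 and 84.1% in replicate 2. A 93-base exon of Zyx had 82.4% in number 1 and 79.5% in number 2, but 1.86% in replicate 1 and 2.46% in replicate 2. A 34-base exon of Ptbp1 had 88.8% in number 1 and 93.9% in number 2, but 64.5% in replicate 1 and 51.6% in replicate 2.

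**Figure D4:**
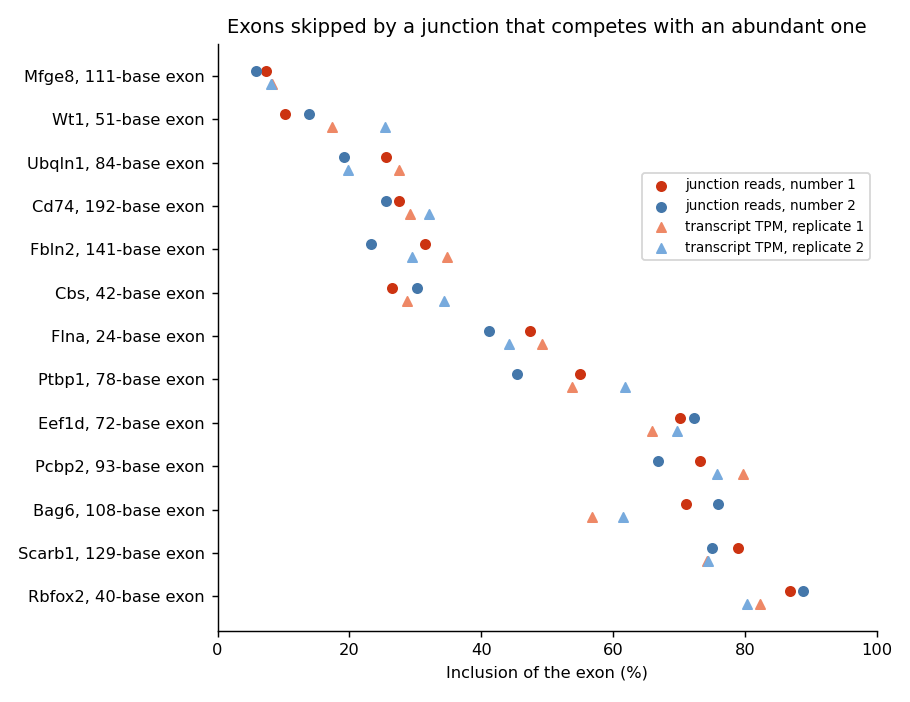
Inclusion in percent (x axis) of 1 exon in each of 13 genes picked after their values were seen, by junction reads of number 1 and number 2 (circles) and by the TPM of annotated transcripts in replicate 1 and replicate 2 (triangles). Flna lies between 41.2% and 49.3% by all 4 values, while for Wt1 the TPM values (17.3% and 25.4%) lie above the junction values (10.3% and 13.9%). The 3 exons whose junction and TPM values lie over 30 points apart are not drawn.

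A competing join farther away, as at alternative first exons, shared a site with 107 abundant junctions. Of the 248 with a competitor, 13 stood in more than 1 of these classes. Aldoa, a glycolytic aldolase, joined the same acceptor to a far donor with 1235 reads (16.03%, 15.2% to 16.9%) and to a nearer one with 5969. Tpm1, a tropomyosin that stabilises actin filaments, joined one acceptor to donors 4546 bases apart with 1674 and 1041 reads. Exon-skipping joins also had small shares, with 1476 reads in Pcbp2, an RNA-binding protein (21.0% of its donor), and 1275 in Ctbp1, a transcriptional corepressor (27.9% of its donor). In Cd74, the invariant chain of antigen presentation, the smaller form was a join that includes an exon, with 1395 reads (32.0% of its acceptor), against 2962 over the skipping join. Gene copies also enter this group. The beta-globin gene Hbb-bt had 1173 reads, and an unflagged join reaching the neighbouring copy had 1173 as well. At Hba-a1 and Hba-a2 a join between the copies had 1322 reads and the joins within them 1322 and 1324. In 5 abundant junctions both read numbers of a competitor were within 2% of its own, all at globin copies, so their shares are uncertain. That limit misses other such joins. An unflagged join from a donor at Tuba1a, where Gm49450 also fitted, to an acceptor of Tuba1b had 14798 reads. The abundant junctions at those sites had 13370 and 15965, and their shares are uncertain too. How many competitors reach into another gene was not counted.

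Contigs, stretches of the genome that the authors' deposited table lists as covered by reads, give a separate readout. At 4064 of the 4068 abundant junctions (99.9%) both flanking exon ends lay in a contig of the same strand. That was so for 91.1% of flagged junctions of the same length range under 1000 reads. The rule set these groups apart in reads, and their median lengths were 803 and 1457 bases. The gaps given here are therefore a description. Contigs also reached into the introns. They covered a median of 90.5% of the intron, against 23.9%, and both ends lay in 1 unbroken contig for 1601 (39.4%), against 11.3%.

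That share fell with length, from 87.0% at 101 to 200 bases, through 67.2%, 38.3%, 14.3% and 5.42% in the next 4 classes, to 0.414% over 5000 bases, where 2 of 483 did. On the opposite strand the median cover was 0%. No source used here states how much read depth makes a contig. Unspliced RNA and other reads inside introns cannot be told apart.

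**Figure D5:**
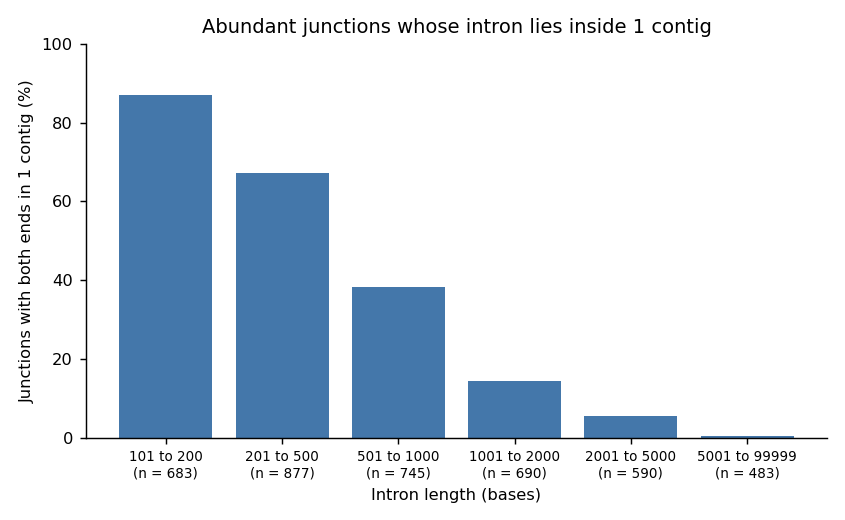
Percent of abundant junctions (y axis, from 0) whose whole intron lies within 1 contig of the same strand, by intron length class (x axis, with the number of junctions). The bars fall from 87.0% for introns of 101 to 200 bases to 0.414% over 5000 bases.

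Gene groups of the ovary were read from 17 lists. Of the 15938 genes tested between the libraries, 10.4% held an abundant junction. The lists were not chosen independently of these levels, so their shares are a description. Of 31 stroma and matrix genes 24 held one, with 175 abundant junctions and 530336 reads. Igfbp7 led, followed by Sparc with 23911 reads and the calcification inhibitor Mgp with 17547 at their highest joins. Of 27 genes of the actin cytoskeleton and smooth muscle 23 held one (103 abundant junctions, 507883 reads).

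Steroid hormone synthesis had 11 of 20 genes and 41 abundant junctions. The highest was intron 5 of Cyp11a1, the enzyme that cuts the cholesterol side chain, with 26502 reads. Of 18 granulosa cell genes 8 held one, led by Gata4 with 4259 reads and Nr5a1 with 4118. Of 20 oocyte genes only Zp3 and Zp2, both egg coat proteins, did, with 3214 and 1046 reads. Oviduct and epithelium genes held one in 5 of 12, with Ovgp1, the oviduct glycoprotein, at 26466 reads and 577 ± 70.0 TPM (SD, n = 2). The part that adjoining oviduct RNA takes in these values was not tested.

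Protein synthesis gave unequal shares. Only 27 of 79 ribosomal protein genes held an abundant junction, with 55 in all and a median of 3937 reads, while 17 of 27 translation factors did, with 57. Of 42 genes of the respiratory chain 23 held one (66), of 14 glycolytic genes 9 (30), of 26 lipid and cholesterol genes 17 (78) and of 25 chaperones 15 (33). Splicing and RNA-binding genes had 13 of 38, antigen presentation and macrophage genes 10 of 19, iron and heme genes 4 of 11, and endothelial genes 3 of 13. Among 13 long noncoding RNAs only Meg3, an imprinted RNA, did, with 4. Against the 9.83% over 2-fold among all abundant junctions, 17 of the 55 ribosomal protein joins were, 12 higher in number 1 and 5 in number 2. Of the 66 of the respiratory chain 17 were, 7 and 10. Among cytoskeletal joins 1 of 103 was, and among granulosa cell joins 0 of 20, too few to set apart from that share. Chaperones, with 3 of 33, and lipid and cholesterol genes, with 7 of 78, lay near it.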

How the data were processed

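Poly(A)+ RNA of 2 ovary libraries was sequenced from both ends, with 76 bases read at each, per the labels. The authors deposited a junction table with a read count and a score per junction, and a contig table with a signal level, both on mm9 and not tied to a library. Expected counts, TPM and FPKM per gene, and TPM per transcript, were deposited by the authors for each library, per the file headers, on mm10 with GENCODE M4. No source used here names the aligner, quantifier or junction caller. Coordinates printed for junctions are mm9, 1-based. Names and sequences came from GENCODE M21 (mm10). No coordinate was carried between builds. Library depth was 41124061 expected counts for replicate 1, against 34930860 for replicate 2.

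Expected counts were rounded, scaled by TMM (edgeR 4.0.16, R 4.3.3), and compared as log2 of replicate 1 over replicate 2 after adding 1 count. A single library stood on either side, so no test was possible. DESeq2 1.42.0 gave alternative size factors. Other steps used Python 3.11.15, numpy 2.4.6, pandas 2.3.3, scipy 1.17.1 and matplotlib 3.10.9. The call past 2-fold was tried on simulated counts that held planted changes and counting error only, so it does not cover the spread of the real counts. The match by structure was tried on junctions all moved by a constant. That could not change a match made on lengths, so it is no check of the names. Genes and junctions named are the extremes in reads, length, share and balance, the nearest to each threshold, the genes with the most junctions, and up to 3 per list. Others are said to be picked after their values were seen, or serve as examples of a class. A few that the rule names are not reported here. The junctions and lists were chosen with earlier results of these data known.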

Additional observations from a re-analysis of the deposited data

How the results depend on the processing

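The number of abundant junctions was 9823 at 500 reads and 1425 at 2000. The count over 2-fold between the read numbers was 167 among the 1425 of at least 2000 reads. That is 11.7%, against 9.83% of all abundant junctions. The count was 1145 at 1.5-fold, and 404 with median ratio scaling. Members with a competitor were 695 at a share of 1%, 159 at 10%, and 161 with flagged junctions only. Length alone gave 1052 a single gene, against 3919 by structure. The 1021 named both ways got the same gene, but the match by structure starts from the same intron length. That outcome was therefore fixed and says nothing on whether the names are right. The correlation with gene level ranged from 0.639 to 0.650 with either replicate left out. Host genes over 2-fold numbered 33, 35 with DESeq2 size factors and 48 with the spike-in total. Joined junctions, contig overlap and FPKM in place of TPM moved by under 1.5 times. No paired analysis was possible because the labels give 1 group only. Pooled counts limit every junction value: the spread between animals cannot be read from them.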

Other observations

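In 4 of the 1239 genes whose whole chain was found, the highest join had more reads than the summed expected counts of the gene in both libraries. Rap1b, a small GTPase of cell adhesion, had 3100 reads over intron 1, against expected counts of 670 in replicate 1 and 704 in replicate 2. Its other 6 introns had 15 to 639 reads. Acaa1b, a peroxisomal thiolase, had 1160 reads over intron 9, against expected counts of 289 in replicate 1 and 312 in replicate 2. It has a near-identical sister gene, so its counts are uncertain. Hsbp1 had 2838 reads over its AT to AC intron and 1348 and 917 counts, and Mrpl52 had 5887 over intron 1, which is outside the length rule, and 1482 and 4193 counts. Over all 1239 genes the highest join had a median of 14.6% of those counts. The junction table and the gene tables were made on different builds and annotations, and the part this takes was not tested.

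In the 100 genes whose highest join exceeded 20 times the median, the highest join had a median log2 of number 1 over number 2 of -0.44, and the other joins of the same transcripts 0.30. The highest lay below the others in 71 of the 100. In the 267 genes at most 2 times the median the values were 0.00 and 0.09, and the highest lay below in 154. These sets differ in place: the highest was the first intron in 65 of the 100 and in 73 of the 267. Over all 1239 genes the values were -0.40 and 0.16 where the highest was the first intron. They were 0.05 and 0.08 where it was a middle one, and 0.05 and 0.006 where it was the last.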
